A study of Mus musculus with 15 samples.

Results

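The genes described here are 8 genes of the eosinophil, a granulocyte of allergic and antiparasitic responses: the granule protein genes Prg2, Prg3 and Epx, the ribonuclease genes Ear1, Ear2 and Ear6, the receptor gene Il5ra and the lipoxygenase gene Alox15. They were picked by symbol from the 53379 gene rows of a table of normalized read counts, with their values in these libraries known, so their levels and differences between groups are given as descriptions without p-values, and counts of them called by a fit are descriptions too. All 8 passed the filter on low values that left 12673 genes for testing, a minimum of 10 normalized reads in 3 or more of the libraries. Il5ra and Alox15 passed it only through the 3 dKO libraries of clone C1, where they are highest.

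RNA was sequenced from mouse fetal liver cells transformed with the MLL-ENL oncogene and kept in IL-3 at 10 ng/ml, in 5 groups of 3 libraries. WTFL cells of clones C1 and C2 carried the floxed alleles of Cebpa and Cebpb, which encode the myeloid transcription factors C/EBPα and C/EBPβ. The dKO cells of each clone had lost both genes and expressed GFP, and dKO-LAP* cells, analysed here in clone C1 only, expressed GFP together with LAP*, which is the full-length rat C/EBPβ protein. Each dKO line was a clone that survived deletion by a cell-permeable Cre. The 3 RNA samples of each group were taken at different times, so all errors and p-values measure the spread between samples of 1 line. The WTFL labels name no GFP vector, so vector, selection and deletion cannot be told apart between dKO and WTFL cells, and clone C1 and clone C2 started from cells of different mice. The lines carried markers of a myeloid progenitor in every library (6 of 6 listed genes, among them Ptprc, Kit and Mpo, with reads).

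Eosinophils develop from granulocyte progenitors under GATA and C/EBP factors, and IL-5 acting through its receptor expands and keeps them alive. Their granules hold a core of major basic protein, encoded by Prg2, around which lie eosinophil peroxidase (Epx) and cationic ribonucleases of the RNase A family. Several of the same transcripts, such as Prg2, are made early, in eosinophil progenitors, and some are also known from basophils and mast cells.

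Libraries held 9212237 to 13613500 reads on genes (median 11885279), and 1 read was worth 0.883 to 1.34 normalized reads. Values of a few normalized reads are therefore single reads, and 3 reads per library were taken as the floor. Cebpa lay between 903 and 1437 normalized reads in WTFL cells of C1 and between 1653 and 2267 in those of C2, and at 0 in all dKO libraries. In dKO-LAP* cells it was at 0 in all but 1 library, with 0.92. Cebpb lay between 1353 and 1634 in the WTFL libraries of both clones and at 0 in the dKO libraries. It was at 2538 to 4216 in dKO-LAP* cells, and whether these are reads of the rat LAP* transcript was not tested.

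The Ear genes are close copies, which bears on how far their counts can be told apart. The coding parts of Ear1 and Ear2 are identical at 95.1% of aligned bases, those of Ear1 and Ear6 at 87.3% and those of Ear2 and Ear6 at 87.6%. Below are the first 120 coding bases of each from the GENCODE vM21 transcripts (GRCm38, the assembly of mm10), all in exon 2 on chromosome 14. They are shown because they hold both stretches common to the 3 genes and bases that separate them, and capitals mark the 16 positions where the 3 genes are not all alike. Ear1 lies at chr14:43819290-43819409 on the minus strand, Ear2 at chr14:44102887-44103006 on the plus strand and Ear6 at chr14:51853998-51854117 on the plus strand.
Ear1: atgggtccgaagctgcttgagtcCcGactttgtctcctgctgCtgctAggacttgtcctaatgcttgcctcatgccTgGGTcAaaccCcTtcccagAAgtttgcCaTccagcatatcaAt
Ear2: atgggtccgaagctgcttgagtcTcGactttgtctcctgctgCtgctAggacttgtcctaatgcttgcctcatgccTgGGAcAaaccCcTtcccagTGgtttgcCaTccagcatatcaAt
Ear6: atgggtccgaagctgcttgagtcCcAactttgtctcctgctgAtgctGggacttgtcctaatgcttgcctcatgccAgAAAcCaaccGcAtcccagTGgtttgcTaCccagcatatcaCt

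Over the longest transcript, 247 of the 638 windows of 76 bases in Ear1 (38.7%) also occurred in a transcript of another gene, 197 of them in the pseudogene Ear-ps9, 60 in Ear10 and 50 in Ear2. In Ear2 147 of 644 windows (22.8%) were shared, 117 of them with Ear10. No window of Ear6, Prg2, Prg3, Epx, Il5ra or Alox15 was shared. Ear1 also overlaps the pseudogenes Ear-ps9 and Ear-ps12 on its own strand, and the pseudogene Ang-ps2 and the lincRNA gene AC154806.1 on the opposite strand. Ear2 overlaps the lincRNA gene Gm49101 on the opposite strand. How reads that match several genes were counted, and with which strand setting, is not given in the sources used here, so the counts of Ear1 and Ear2 are uncertain to that extent. The 3 WTFL libraries of C1 had 28.1, 89.3 and 138 normalized reads on Ear2 and 0 on Ear1.

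Promoters were searched because the members share a lineage whose regulators include GATA, C/EBP and ETS factors. RefSeq (GRCm38.p6) gave an entry for 6 of the 8 genes, not for Prg2 and Alox15. In the 250 bases before the RefSeq start site matches to GATA, C/EBP and ETS motifs were sought on both strands. The GATA motif was read as AGATAA with its variant AGATAG, or as TGATAA with its variant TGATAG. The C/EBP motif was read as TTGCNNAA and the ETS motif as GAGGAA, and no match of 1 kind overlapped another. A GATA motif was found in 2 of the 6 (Prg3 and Il5ra) and in 26.5% of 32536 promoters of the same length. The C/EBP motif was found in 2 of the 6 (Ear1 and Ear2) and in 9.57% of all, and the ETS motif in 0 of the 6 and in 23.4% of all. These shares are descriptions of letters and were not tested. The windows with a match are shown for Prg3 (chr2:84987965-84988214, plus strand), Il5ra (chr6:106749038-106749287, minus strand) and Ear2 (chr14:44102404-44102653, plus strand), with the match in capitals.
Prg3: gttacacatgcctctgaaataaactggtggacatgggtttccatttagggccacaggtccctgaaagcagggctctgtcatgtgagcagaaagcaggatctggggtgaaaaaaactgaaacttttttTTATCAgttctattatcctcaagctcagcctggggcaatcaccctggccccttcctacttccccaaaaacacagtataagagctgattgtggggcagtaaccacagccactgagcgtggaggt
Il5ra: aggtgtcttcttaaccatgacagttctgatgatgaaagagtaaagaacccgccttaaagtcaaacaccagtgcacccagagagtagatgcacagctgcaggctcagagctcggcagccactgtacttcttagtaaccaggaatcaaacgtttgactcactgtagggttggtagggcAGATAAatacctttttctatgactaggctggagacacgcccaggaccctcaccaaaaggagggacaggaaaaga
Ear2: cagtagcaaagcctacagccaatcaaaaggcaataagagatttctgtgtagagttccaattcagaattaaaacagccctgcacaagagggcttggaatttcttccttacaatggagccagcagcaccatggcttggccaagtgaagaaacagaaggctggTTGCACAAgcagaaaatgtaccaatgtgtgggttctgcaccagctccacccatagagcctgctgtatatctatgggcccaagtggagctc

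The match lay at -123 to -118 from the start in Prg3, where it reads TTATCA, at -74 to -69 in Il5ra (AGATAA) and at -90 to -83 in Ear2 (TTGCACAA). Ear1 held the same 8 letters at -92 to -85, and its window was 97.6% identical to that of Ear2. The window of Ear6 was 78.2% identical to that of Ear1 and held no match. That window is not wholly upstream by GENCODE vM21, where an exon of Ear6 covers 69 of its bases.

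The granule core gene Prg2 (chr2:84980461-84983632, plus strand) was the most abundant of the 8 per kilobase of exon in the dKO and dKO-LAP* groups, whereas Ear2 was in WTFL cells of both clones. In clone C1 it had 0 reads in all 3 WTFL libraries and 10159, 9403 and 5479.8 normalized reads in the dKO libraries, a level at least 2561-fold higher against the floor. In dKO-LAP* cells it had 1100.1, 475 and 406. In clone C2 it had 2.99, 2.10 and 7.33 in WTFL and 104, 156.5 and 153 in dKO cells. No groups of Prg2 overlapped, and their order was dKO of C1, dKO-LAP*, dKO of C2, WTFL of C2 and WTFL of C1. Per kilobase of exon, Prg2 in dKO cells of C1 stood at 9961 normalized reads, rank 39 of 12660 genes with a length, and at 787.9 in dKO-LAP* cells, rank 723.

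Prg3 (chr2:84988215-84993886, plus strand) encodes a homologue of major basic protein and starts 4583 bases beyond the end of Prg2. It had 0 reads in the WTFL libraries of C1, 900.4, 868 and 582 normalized reads in dKO cells, at least 240.4-fold higher, and 71.1, 32.3 and 36.5 in dKO-LAP* cells. In clone C2 it had 0, 0 and 2.75 in WTFL and 13.6, 11.7 and 24.7 in dKO cells, a ratio of 16.7 with a 95% counting interval of 5.39 to 84.0. This interval, like those that follow, covers counting error only. The groups stood in the order given for Prg2, except that the WTFL groups of the clones overlapped.

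Epx (chr11:87864000-87875536, minus strand), the gene of eosinophil peroxidase, which makes hypobromous acid from bromide, had 0 reads in WTFL cells of C1 and 3554, 2904 and 1609 normalized reads in dKO cells. That was at least 825-fold higher. In dKO-LAP* cells it had 425, 206 and 185. In clone C2 it had 0, 0 and 2.75 in WTFL cells against 92.1, 149 and 135 in dKO cells, a ratio of 128 (43.4 to 623). Again dKO cells of C1 were highest, dKO-LAP* cells next and dKO cells of C2 below both, and only the WTFL groups overlapped.

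The ribonuclease genes split in clone C2. Ear6 (chr14:51853699-51854643, plus strand) followed the granule proteins in clone C1, with 0, 0 and 2.04 normalized reads in WTFL cells and 1099.7, 793 and 456 after the deletion. With LAP* it had 90.4, 68.2 and 53.8. The ratio of dKO to WTFL was 1072 (296 to 8859). In C2 it had 0, 1.05 and 0 in WTFL and 4.18, 7.78 and 5.36 in dKO cells, a ratio of 17.8 (2.78 to 743).

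Ear1 (chr14:43818765-43875517, minus strand) had 0 reads in WTFL cells of C1, 648, 441 and 178 normalized reads in dKO cells, at least 129.6-fold higher, and 49.8, 33.2 and 31.9 in dKO-LAP* cells. In clone C2 it had 0 in WTFL cells and 0, 2.92 and 1.07 in dKO cells, at or under the floor in every library, so no fold is given. Ear1 thus stood above the floor in clone C1 alone among these libraries.

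Ear2 (chr14:44102654-44103534, plus strand), which is also known from monocytes and macrophages, was the exception. It was already present in WTFL cells of C1 and stood at 753, 515 and 231 normalized reads in dKO cells, 5.88 times the WTFL mean (log2 fold change 2.65, SE 0.63). In dKO-LAP* cells it had 99.55, 53.5 and 55.6, within the range of the WTFL cells. In clone C2 the direction was the opposite: 1.99, 7.34 and 10.99 in WTFL against 0, 1.94 and 0 in dKO cells. The WTFL level there was 10.0 times that of dKO cells (2.46 to 88.4), from 21 and 2 reads in all.

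**Figure D1:**
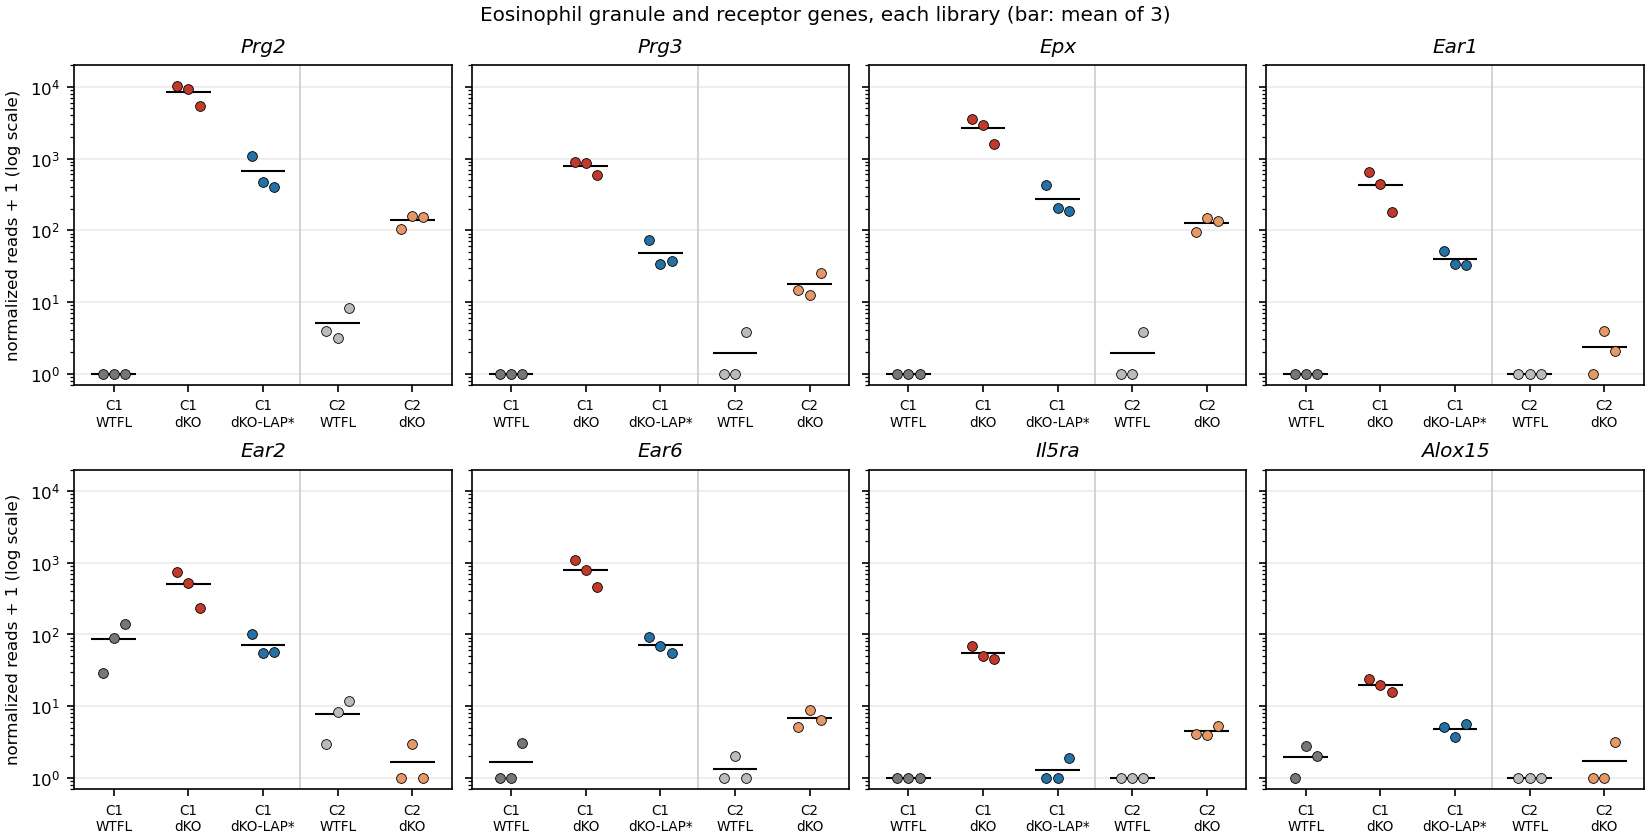
Normalized reads plus 1 on a log axis for each of the 8 genes, 1 point per library and a bar at the mean of the 3 libraries of a group, with clones C1 and C2 side by side. In each panel the dKO libraries of C1 are the highest group, and a point at 1 is a library with 0 reads.

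Il5ra (chr6:106710357-106749037, minus strand) encodes the chain that gives the IL-5 receptor its specificity. It had 0 reads in the WTFL libraries of both clones and 67.95, 49.3 and 44.1 normalized reads in dKO cells of C1, at least 16.5-fold higher. In dKO-LAP* cells 0, 0 and 0.91 were left, 1 read in 3 libraries. In dKO cells of C2 it had 3.14, 2.92 and 4.29, or 10 reads in all, at least 1.17-fold higher than in WTFL cells against the floor. Il5ra was the only one of the 8 for which dKO-LAP* cells lay below dKO cells of C2, without overlap.

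Alox15 (chr11:70344152-70352031, minus strand), whose product oxygenates arachidonic acid and is known from eosinophils and macrophages, was the lowest of the 8 in dKO cells of C1. It had 0, 1.80 and 1.02 normalized reads in WTFL cells of that clone, 22.65, 18.9 and 15 in its dKO cells and 4.06, 2.77 and 4.56 once LAP* was added. The ratio of dKO to WTFL was 17.5 (5.69 to 87.6). In clone C2 it was at 0 in WTFL cells and at 0, 0 and 2.15 in dKO cells, at or under the floor.

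Per kilobase of exon the levels in dKO cells of C1 fell into a wide range. Epx stood at 982, Ear6 at 829, Prg3 at 826, Ear2 at 695 and Ear1 at 578 normalized reads per kilobase, close to each other and below Prg2. Il5ra at 15.05 and Alox15 at 7.68 ranked 10024 and 10855 of 12660 genes. The receptor and lipoxygenase transcripts were thus rare beside the granule transcripts in the same libraries. In bulk RNA fewer cells of a type and less RNA per cell cannot be told apart, here and in every comparison that follows.

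In clone C1, the limma fit at an adjusted p of 0.05 called 8 of the 8 genes higher after deletion, where 17.1% of all genes tested were called higher and 19.9% lower. Their median log2 fold change was 8.76, or 7.46 with the 5 genes at 0 in WTFL cells set to their bound, beside -0.01 over all genes. In clone C2 it called 5 higher and Ear2 lower, with 17.4% and 20.1% of all genes called, and a median of 2.26 (1.69 with Il5ra at its bound) beside -0.03. The call of Ear2 there was lost with edgeR, with a pseudocount of 5 and without WTFL replicate 3. Nothing is read from these counts, because the same libraries chose the members. For the genes with 0 reads in WTFL cells the fitted values depend on the pseudocount of 1, so the bounds above stand in their place.

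Between the clones the dKO levels differed by more than their range for each of the 8. The share of all genes tested that differed so was not counted, so nothing is read from this. The mean in dKO cells of C1 was 60.6 times that of C2 for Prg2, 47.1 times for Prg3 and 21.5 times for Epx. It was 136 times for Ear6 and 15.6 times for Il5ra, and for Ear1, Ear2 and Alox15 the C2 level was at or under the floor. The difference between the clones' dKO effects was called lower in C2 for 8 of 8 members, again a description, where 14.3% of genes were called lower and 15.1% higher, but edgeR on the recovered reads called 3 of 8 (Prg2, Prg3 and Ear2) and DESeq2 6 of 8. WTFL cells of the clones differed too: Prg2 had 13 reads in C2 and 0 in C1, and the Ear2 mean in C1 was 12.5 times that in C2.

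LAP* in dKO cells of C1 went with lower levels of the 8 genes. The mean left in dKO-LAP* cells was 7.91% of the dKO mean for Prg2, 5.95% for Prg3, 10.1% for Epx, 9.07% for Ear1, 9.04% for Ear6 and 13.9% for Ear2. Il5ra kept 0.564% and Alox15 20.1%. For Il5ra this share rests on 1 read in dKO-LAP* against 157 in dKO cells. The ratio of dKO to dKO-LAP* from these summed reads, divided by the summed size factors as in the other ratios with a counting interval, was 167 (29.6 to 6653). The log2 fold changes were -3.75 for Prg2 (SE 0.38), -4.10 for Prg3 (SE 0.46), -3.33 for Epx (SE 0.45) and -2.05 for Alox15 (SE 0.50). No dKO-LAP* library reached the lowest dKO library in any of the 8. How many of all genes tested were separated in this way was not counted. Siglecf and Gata2, described below, were separated too but not called. The median log2 fold change of the 8 genes was -3.36, beside 0 over all genes. limma called 8 of 8 lower, where 3.03% of all genes were called lower and 1.43% higher, 6 to 7 of 8 when a library was left out and 3 of 8 with a pseudocount of 0.1, where all 8 log2 fold changes were still negative (-2.29 for Alox15 to -7.94 for Il5ra). Without 1 library Alox15 was not called in any of the 6 fits and Ear2 not in 4, those without dKO replicate 1 or 2 or without dKO-LAP* replicate 2 or 3. Nothing is read from these calls either, since the same libraries chose the members and Il5ra and Alox15 passed the filter only through the dKO cells.

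**Figure D2:**
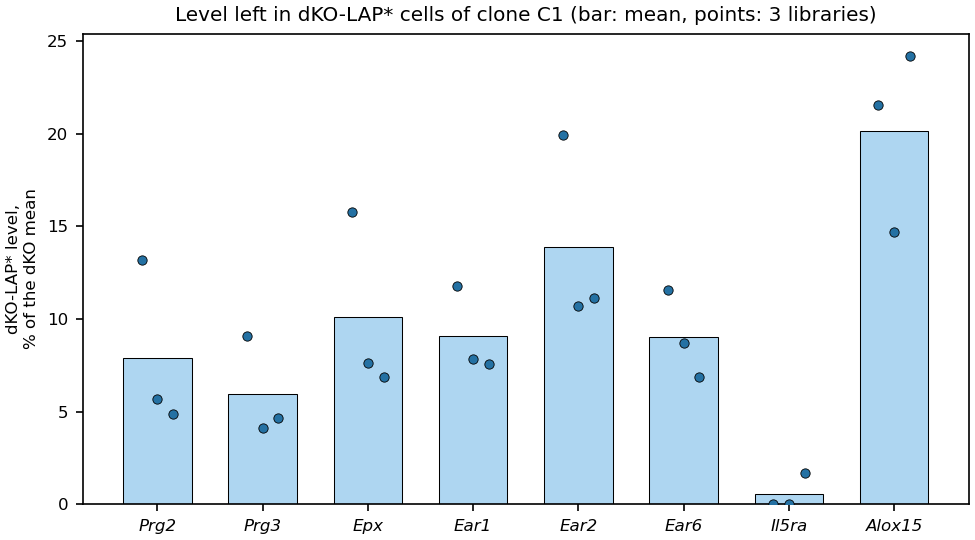
Mean level in dKO-LAP* cells as a percent of the mean in dKO cells of clone C1 (bars), with the 3 dKO-LAP* libraries as points. The bars run from 0.564% for Il5ra to 20.1% for Alox15, with a median of 9.06%, and replicate 1 is the highest point in 6 of the 8 genes.

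The levels in dKO-LAP* cells did not all come back to those of WTFL cells. Prg2 was still at least 203-fold higher than in WTFL cells, Epx at least 83.4-fold, Prg3 at least 14.3-fold and Ear1 at least 11.7-fold. Ear6 stood at 99.5 times the WTFL level (27.2 to 827) and Alox15 at 3.59 times (0.968 to 19.8). Ear2 was at 0.818 of the WTFL mean, with overlapping libraries, and Il5ra was at or under the floor in both groups. As a description, limma called 6 of 8 higher than in WTFL cells, where 14.2% of genes were called higher. Alox15, the weakest of the 6, was not called with edgeR, DESeq2, a replicate block, no filter or a pseudocount of 0.1 or 5, nor in 5 of the 6 fits without 1 library, all but that without WTFL replicate 2.

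Within the dKO cells of C1 the same libraries were high and low for the whole set. Replicate 1 held the highest and replicate 3 the lowest value of each of the 8 genes, with 1.51-fold (Alox15) to 3.63-fold (Ear1) between them. Of the 12673 genes tested, 10.6% had these 3 libraries in that order and 2.02% with at least 1.5-fold between the ends. For Alox15 the order rests on 20, 18 and 17 reads and for Il5ra on 60, 47 and 50, few enough for counting error to change it. The coefficient of variation was 52.3% for Ear2 and 55.7% for Ear1 but 20.3% for Alox15. In dKO-LAP* cells replicate 1 was highest for 6 of the 8, and for 37.7% of all genes. The summed mast cell and basophil markers of dKO replicates 1, 2 and 3 were 3045, 2990.4 and 2642, and the summed neutrophil markers 199876, 198495 and 209955. The part of sampling time or cell composition in this was not tested.

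**Figure D3:**
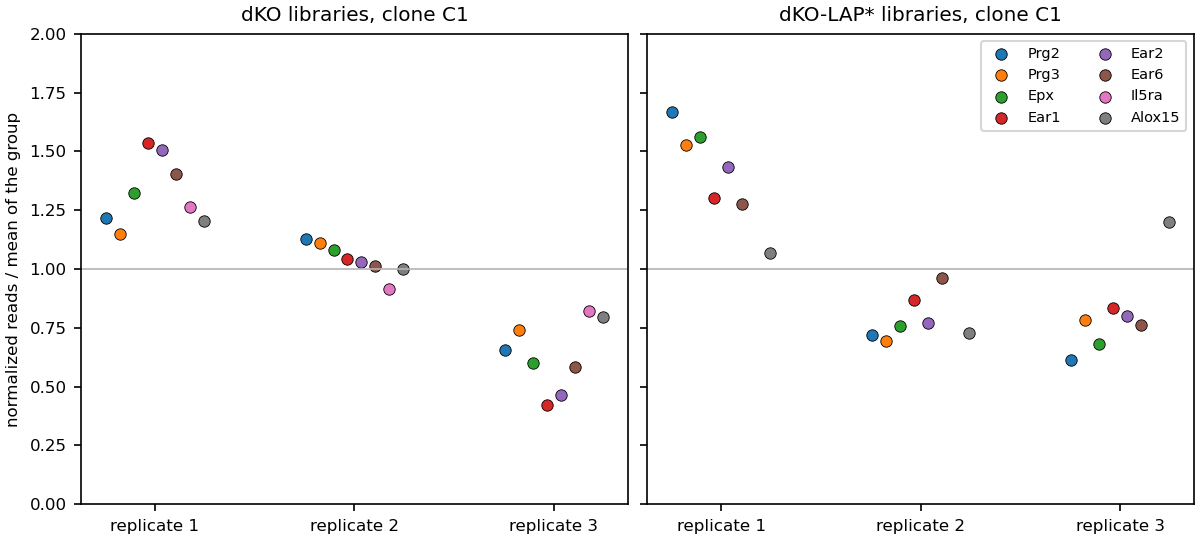
Normalized reads of each gene divided by the mean of its group, for the 3 dKO (left) and the 3 dKO-LAP* libraries (right) of clone C1, on a linear axis, with Il5ra left out on the right, where it has 1 read. On the left the points of replicate 1 all lie above 1 and those of replicate 3 all below 1.

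Across the 15 libraries, Pearson's r of log2(normalized reads + 1) between members ran from 0.36 for Epx and Ear2 to 0.99 for Prg2 and Epx. Against the mean of the 8 standardized profiles it was 0.99 for Ear6, 0.85 for Il5ra and 0.66 for Ear2. These values describe libraries that share clones and groups. The 10 other genes with the most similar profile were Cd37 (r = 0.97), Cep128, Acap1, Acpp, Il1rl1, Arel1, Alox5ap, Rflnb, Sema4a and Deaf1 (0.96). Unlike the members, Cd37, which encodes a leukocyte tetraspanin, was abundant in each group. Its means ± SD (n = 3) in C1 were 1489 ± 72.2 normalized reads before the deletion, 2389.6 ± 89.4 after it and 1957 ± 67.1 with LAP*. In C2 they were 1499.8 ± 175 and 1687 ± 62.9. With Spearman's rho 2 of the 10 names were the same, and with a pseudocount of 5 it was 5 of 10.

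The other genes of the eosinophil programme, from lists of 31 genes, moved in both directions. Of these, 21 passed the filter. The deletion went with 11 calls upward and 4 downward in clone C1, where 17.1% of all genes tested were called higher and 19.9% lower. In C2 it went with 8 upward and 3 downward (17.4% and 20.1% of all genes). LAP* went with 5 downward and 0 upward, beside 3.03% and 1.43% of all genes. Il1rl1 and Gata1 passed the filter only through the dKO libraries of C1, where they were highest. Without these 2 genes, 19 were left, with 9 upward and 4 downward in C1, 7 upward and 3 downward in C2 and 3 downward with LAP*. The median log2 fold change of these 19 was 0.38 in C1, 0.10 in C2 and -0.26 for dKO-LAP* against dKO cells (0.68, 0.10 and -0.29 with all 21), beside -0.01, -0.03 and 0 over all genes. All adjusted p-values below are limma's, over 12673 genes.

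Among surface genes, Siglecf, the inhibitory lectin used to sort mouse eosinophils, rose in both clones. It had 107, 122 and 98.8 normalized reads in WTFL and 465, 488 and 500.4 in dKO cells of C1, and 17.9, 11.5 and 8.25 against 59.6, 46.7 and 61.1 in C2. The log2 fold changes were 2.14 (SE 0.20, adjusted p = 6.6e-07) and 2.12 (SE 0.20, adjusted p = 9.1e-07), and the 95% interval of their difference was -0.64 to 0.59. In dKO-LAP* cells it had 408, 431 and 378, a difference of -0.26 from dKO cells (95% interval -0.69 to 0.18, adjusted p = 0.56). The ratio of the Siglecf means was thus 0.837, while Prg2 and Epx kept 7.91% and 10.1%.

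Ccr3, the eotaxin receptor of mature eosinophils, had at most 2.10 normalized reads in any library and was not tested. Il1rl1, the IL-33 receptor of eosinophil progenitors, mast cells and other cells, was at 0 in WTFL cells of both clones and in dKO cells of C2. It had 18.1, 15.7 and 18.5 normalized reads in dKO cells of C1, at least 5.36-fold higher, and 3.05, 1.84 and 3.65 with LAP*, a difference of -2.29 on the log2 scale (SE 0.37). No p-value is given, because its dKO libraries alone brought it past the filter. Adgre1, which encodes F4/80, moved in opposite directions, with -0.66 in C1 (adjusted p = 0.032) and 2.30 in C2 (adjusted p = 1.1e-06).

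The receptor partners of Il5ra were present throughout. Csf2rb, the common beta chain that signals for IL-5, IL-3 and GM-CSF, had means of 5795 normalized reads in WTFL cells of C1, 6771 after the deletion and 5931 with LAP*, and 4754 and 4048 in C2, and was called in none of these comparisons (adjusted p = 0.082, 0.075 and 0.33), although the effects of the clones differed by -0.46 (adjusted p = 0.02). Csf2rb2 rose in C1 (log2 fold change 0.68, adjusted p = 0.0027), Il3ra fell in C2 (-0.62, adjusted p = 0.0068), and Csf2ra, the GM-CSF receptor alpha chain, fell in C1 (-0.74, adjusted p = 8.1e-05) and was lower again in dKO-LAP* cells (-0.54, adjusted p = 0.012). The changes of Il5ra thus came with an abundant shared chain in each group.

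Of the 9 listed lineage regulators other than Gata1, 4 rose and 2 fell in dKO cells of C1, and 3 rose and 2 fell in C2, with the shares of all genes given above. Gata1, which drives eosinophil, mast cell and erythroid fates, had 4.01, 0.90 and 3.06 normalized reads in WTFL and 34.0, 32.5 and 18.5 in dKO cells of C1, and 8.13, 3.69 and 4.56 in dKO-LAP* cells. In C2 it rose from 0 in WTFL libraries to 6.28, 4.86 and 9.65. Its log2 fold change in C1 was 3.07 (SE 0.43) and its difference with LAP* was -2.20. Both are given without a p-value, because Gata1 too passed the filter only through dKO cells of C1. Zfpm1, which encodes the GATA cofactor FOG1, rose by 3.05 and 1.91 in the clones (adjusted p = 1.1e-05 and 0.00093) and fell by 1.79 with LAP* (adjusted p = 0.013).

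Gata2, a regulator of progenitors, mast cells and eosinophils, rose by 4.69 in C1 and 3.00 in C2 (adjusted p = 8.1e-10 and 1.4e-07), and its difference between dKO-LAP* and dKO cells was -0.41 (adjusted p = 0.40). Its mean was 260.2 normalized reads in dKO cells of C1 and 549 in those of C2, the reverse of the order for the 8 genes. Cebpe, a C/EBP factor that granulocytes need for their late granules, rose by 2.37 and 2.10 (adjusted p = 8e-11 and 3.6e-10), to means of 2107 and 2166 normalized reads, and differed by -0.23 with LAP* (adjusted p = 0.25). Xbp1, a secretory pathway regulator required by eosinophils, fell by 0.38 and 0.46 in the clones (adjusted p = 0.0011 and 0.00021). In these dKO cells similar Cebpe levels stood beside Prg2 levels that differed 60.6 times. Whether Gata2, Cebpe or Xbp1 bears on the levels of the 8 genes was not tested, and clone and mouse cannot be told apart.

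Of the lipoxygenase and leukotriene genes, Alox5 and its partner Alox5ap rose in both clones. Alox5 changed by 3.00 in C1 and 0.94 in C2 (adjusted p = 2.2e-08 and 0.0022) and Alox5ap by 0.71 and 0.33 (adjusted p = 1.1e-06 and 0.0015). Alox5ap fell by 0.29 with LAP* (adjusted p = 0.028), whereas Alox5 was not called there (-0.47, adjusted p = 0.25). Ltc4s, the leukotriene C4 synthase gene, rose in C1 only by this threshold (2.77, adjusted p = 9.3e-06, against 0.30, adjusted p = 0.52, in C2), and the difference between the clones was -2.47 (adjusted p = 0.0011). Of the other Ear genes, Ear10 had at most 1.13 normalized reads in a library. The row that the table names Ear4 had no read, and its identifier is that of Ear14 in GENCODE vM21, so which of these genes it stands for is uncertain. No row was named Ear3, Ear5, Ear7 or Ear14, and these are not analysed here.

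**Figure D4:**
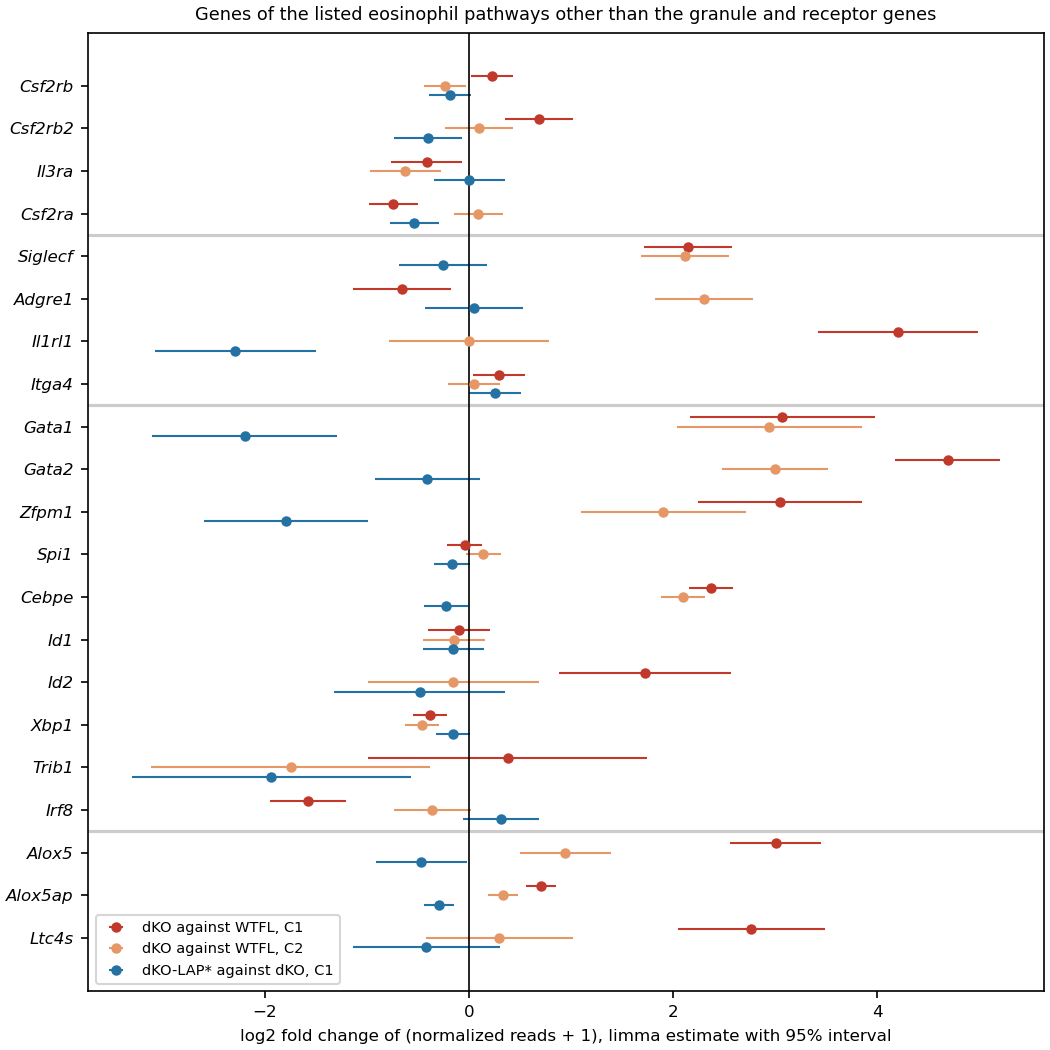
limma log2 fold change with its 95% interval for the 21 listed eosinophil pathway genes that passed the filter, for dKO against WTFL cells of C1 and C2 and for dKO-LAP* against dKO cells of C1, with lines between the 4 lists. Siglecf, Gata2 and Cebpe lie to the right in both clones with dKO-LAP* differences of -0.26, -0.41 and -0.23, whereas Il1rl1, Gata1, Trib1 and Zfpm1 lie at -1.79 or lower with LAP*, Trib1 (-1.94) without being called (adjusted p = 0.11).

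Within 100 kb of the members 15 other genes were tested. Of these, 5 were called higher and 1 lower in dKO cells of C1, beside 17.1% and 19.9% of all genes tested. In C2 it was 3 higher and 2 lower (17.4% and 20.1% of all genes). With LAP* it was 0 higher and 1 lower (1.43% and 3.03% of all genes). Arrb2, 80604 bases from Alox15, was the one called higher in dKO cells of C1 and lower with LAP*, at a small size (0.36, adjusted p = 0.0042, and -0.51, adjusted p = 0.0032, beside -0.08, adjusted p = 0.50, in C2). Ndrg2, 50628 bases from Ear6, and Tspoap1, 78072 bases from Epx, rose in C1 (1.17, adjusted p = 0.0071, and 1.18, adjusted p = 3.5e-05). They were not called in C2 (0.06 and 0.19) or with LAP* (-0.73, adjusted p = 0.22, and -0.36, adjusted p = 0.25). Gm11505, annotated as antisense, rose by 1.64 and 2.16 in the clones (adjusted p = 0.044 and 0.01), and with the strand setting not known its reads cannot be told from those of Mpo, which it overlaps. P2rx3, 4697 bases from Prg3, fell in dKO cells of C1 (log2 fold change -1.92, adjusted p = 0.0039), was not called in C2 (0.09, adjusted p = 0.91) and differed by 0.17 with LAP* (adjusted p = 0.90). Mks1, 197 bases from Epx, was called in none of the 3 comparisons (0.08, 0.07 and 0.11). Mpo, the peroxidase gene of neutrophils and monocytes 59587 bases from Epx, rose by 2.29 and 3.08 in the clones (adjusted p = 2.8e-06 and 1.4e-07) and differed by -0.03 with LAP* (adjusted p = 0.97). With means of 69702 normalized reads without and 68123 with LAP*, Mpo held its level where its homologue Epx fell to 10.1%.

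Summed markers of mast cells and basophils, neutrophils, and erythroid cells and megakaryocytes were higher in dKO than in WTFL cells of C1 and lower again with LAP*, as the 8 genes were. The sum of the monocyte and macrophage markers was lower in dKO cells of C1 and lower still with LAP*. Of the 6 tested, only the lysozyme gene Lyz2 was called lower with LAP*. The calls below stand beside the same shares of all genes, 17.1% higher and 19.9% lower in C1, 17.4% and 20.1% in C2, and 1.43% and 3.03% with LAP*.

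Of 9 listed mast cell and basophil genes 4 passed the filter, and 4 of 4 rose in dKO cells of C1. Their sum per library was 98.8 to 134 normalized reads in WTFL cells of C1, 2642 to 3045 after the deletion and 887 to 1135 with LAP*. With LAP* only Cpa3, the mast cell carboxypeptidase gene, was called lower (-3.56, adjusted p = 9.3e-08). Hdc, which encodes the enzyme that makes histamine, Mcpt8 and Ms4a2 were not called there (adjusted p = 0.25, 0.71 and 0.67). In C2 the sum was 103 to 129 before and 537 to 778 after the deletion, most of it Cpa3 with a mean of 568. There Cpa3 and Hdc rose, Ms4a2, a chain of the IgE receptor, fell (-2.85, adjusted p = 5.9e-06) and Mcpt8 was not called (adjusted p = 0.081). The mast cell tryptase genes Tpsab1 and Tpsb2 were at 0 in all libraries.

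Of 9 neutrophil genes 8 rose in dKO cells of C1 and 7 fell with LAP*, with sums of 86377 to 100521, 198495 to 209955 and 122389 to 141558 in WTFL, dKO and dKO-LAP* cells. In C2 4 of 9 rose and 0 fell, with sums of 115388 to 157645 in WTFL and 164585 to 194110 in dKO cells. Of the monocyte and macrophage genes 6 of 6 tested fell in dKO cells of C1, and 1 of them, the lysozyme gene Lyz2, fell again with LAP* (-1.15, adjusted p = 0.014). Their sums were 42551 to 52113 in WTFL, 26262 to 31340 in dKO and 22650 to 25899 in dKO-LAP* cells. In C2 1 of the 6 fell, Adgre1 rose as given above and 4 were not called, with sums of 16825 to 18033 before and 14758 to 17506 after the deletion, which overlapped. Of the erythroid and megakaryocyte genes 2 of 3 rose and 1 fell in dKO cells of C1 and 1 fell with LAP*, with sums of 22.4 to 47.8 before the deletion, 207 to 312 after it and 61.8 to 75.2 with LAP*. In C2 1 of the 3 rose and 0 fell, with sums of 19.9 to 48.3 and 125 to 208. The part of such cells in the levels of the 8 genes was not tested.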

How the data were processed

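RNA-seq was analysed in 15 libraries of 5 groups. The authors made stranded, paired-end libraries of 76 bases, aligned with STAR (2.5.3a) to mm10, counted reads per gene with HTSeq (0.10.0) and normalized with DESeq2 (1.26.0). The annotation and strand setting are not given in the sources used here. The deposited signal is a normalized read count per gene, a count divided by 1 size factor per library, and dividing by each library's step gave whole reads, within 0.1, for 100% of values above 0. HTSeq's 5 rows of other reads held 22.4% to 26.2% of a library. The table also has 3 per-sample columns, headed as LAPS of clone C2, that match no sample in the labels used here, and they were not used.

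limma 3.58.1 (R 4.3.3) was run on log2(normalized reads + 1) of 15 libraries, with a mean for each group and a trended prior, over the 12673 of 24520 detected genes that reached 10 normalized reads in 3 or more libraries. Calls are at an adjusted p (Benjamini-Hochberg) below 0.05. Alternatives were pseudocounts of 0.1 and 5, no filter, quantile normalization, only the groups compared, a replicate block, edgeR 4.0.16 and DESeq2 1.42.0 on recovered reads, a minimum log2 fold change of 1 in size, and fits without each library in turn. The scripts were tested on simulated data. No 2 libraries of a group agreed within sampling noise. Counting intervals are exact at 95%.

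The 8 genes and all lists were chosen with earlier results of these data known. Named are the 8 genes, listed genes that moved the same way in both clones or that a result turns on, genes within 100 kb, and the 10 genes with the highest r. Cd37 was described, and Arrb2, Ndrg2, Tspoap1, Gm11505, P2rx3, Mks1 and Mpo picked among neighbours, after their values were seen.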

Additional observations from a re-analysis of the deposited data

Results flagged for a closer look

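The effect of the double deletion differed between the clones for each of the 8 genes by the interaction term of the fit, which is given here as a description, because the libraries that it uses also chose the genes. On the log2 scale the effect in clone C2 minus that in clone C1 was -8.11 for Prg2, -6.15 for Prg3, -5.00 for Epx, -7.53 for Ear1, -4.87 for Ear2, -6.61 for Ear6, -3.61 for Il5ra and -2.91 for Alox15. For Prg2, Prg3, Epx, Ear1 and Il5ra the WTFL libraries of C1 had 0 reads, so the size depends on the pseudocount of 1. edgeR did not call Epx, Ear1, Ear6, Il5ra and Alox15, and DESeq2 did not call Il5ra and Alox15. Ear2 was the only one of the 8 with opposite directions, 2.65 in C1 and -2.22 in C2, the latter from 21 and 2 reads. The clones come from different mice and each dKO line is 1 clone, so clone and mouse cannot be told apart.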

How the results depend on the processing

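Counts not named here stayed within 1.5 times under each alternative. Asking for a log2 fold change of at least 1 in size left 1749 genes for dKO against WTFL in C1 (4686 without it), 1441 in C2 (4760), 1661 for the difference between clones (3720), 223 for dKO-LAP* against dKO (565), 1605 for dKO-LAP* against WTFL (4118) and 2081 between the WTFL lines (5192). Of the listed pathway genes it left 7 in C2 (11), 3 for dKO-LAP* against dKO (5) and 10 between WTFL lines (18). Fewer genes follow from its construction. edgeR called 3 of 8 members for the difference between clones, and 1 between the WTFL lines, as did a pseudocount of 5 (main value 2). With a pseudocount of 0.1 the fit called 3 of 8 members lower with LAP*, and Epx, Ear1, Ear2, Ear6 and Alox15 lost the call but not the direction (log2 fold changes of -2.29 to -3.41); the cause was not tested. Ear2 was not called in C2 with edgeR, a pseudocount of 5 or without WTFL replicate 3. Without 1 library, genes called for dKO-LAP* against dKO ran from 276 (without dKO-LAP* replicate 3) to 487, with 278 to 366 without a dKO library, and listed pathway genes from 2 to 5. Of 256 member fold changes, 192 moved by less than the spread between replicates, 64 by more and 0 changed sign.

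Same-numbered libraries of different groups had correlations of deviations from -0.32 to 0.30, and differently numbered ones from -0.25 to 0.33. A pairing of samples by number was thus not seen. With the replicate number as a block, 4557, 4619 and 488 genes were called for dKO in C1, dKO in C2 and dKO-LAP* against dKO, and 8, 6 and 8 members. Values under the floor of 3 reads limit Ear1, Ear2 and Alox15 in C2.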
